A study of Mus musculus with 18 samples.

Results

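A set of 37 genes of endothelial cells, the cells that line blood vessels, was followed through the 3 zones of cultured mouse growth plates and under C-type natriuretic peptide (CNP). The genes were chosen by name for their use in endothelium, and every probe set that the platform annotation pairs with one of these symbols was taken. This gave 65 of the 45037 probe sets on the array, and 37 of 18193 named genes. A probe set is the group of short probes that reads one transcript on an Affymetrix array. Where a gene had several, its brightest probe set stood for it.

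RNA came from tibiae of CD1 mouse embryos of both sexes at E15.5 (embryonic days), grown for 6 days in organ culture in minimal medium. The medium received CNP at 1e-06 M or, in control cultures, its vehicle (BSA in HCl, labelled 1 mM), on days 1, 3 and 5. Each treatment used 24 tibiae, per the labels, and each bone was divided into a resting/proliferating, a hypertrophic and a mineralized piece. The 6 groups were CNP resting/proliferating, vehicle resting/proliferating, CNP hypertrophic, vehicle hypertrophic, CNP mineralized and vehicle mineralized, with 3 arrays each. The 3 arrays of a group were numbered 2, 3 and 4 and came from separate cultures, and the 3 zones of 1 culture came from the same pooled bones. No group carried a mutation or transgene. The sources used here do not say how much perichondrium, the vascularized sheath of the bone, stayed with each piece.

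Cartilage is normally free of blood vessels. Vessels reach the growth plate from the perichondrium and invade it at the border between hypertrophic and mineralized cartilage, drawn by VEGF that hypertrophic chondrocytes secrete, and bone-forming and resorbing cells arrive with them. Endothelial cells are held together by VE-cadherin and claudin 5, respond to VEGF through KDR (VEGFR2) and to angiopoietins through TEK (TIE2), and take their identity from ETS, SOX and GATA transcription factors. CNP is a peptide hormone that acts through the receptor guanylyl cyclase NPR2 and is known for its part in bone growth. In whole pieces of tissue, fewer endothelial cells and less RNA per cell cannot be told apart.

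Chondrocyte and osteoblast genes differed between the zone pieces. Col10a1, the collagen of hypertrophic chondrocytes, averaged a signal of 806 in CNP and 1230 in vehicle resting/proliferating pieces, 7024 in CNP and 7568 in vehicle hypertrophic pieces, and 1004 in CNP and 567 in vehicle mineralized pieces. A list of 9 chondrocyte genes summed to 21120 to 29075 in mineralized arrays, against 54544 to 64451 in hypertrophic arrays. The 4 measured osteoblast genes summed to 12299 to 24294 in mineralized and 8985 to 15852.5 in hypertrophic arrays, and these ranges overlapped. They summed to 2036 to 4793 in resting/proliferating arrays. Trimmed mean brightness (2% off each end) ran from 158 to 512 before normalization. Arrays of one group correlated at r = 0.941 to 0.972. For 1 array, vehicle resting/proliferating replicate 4, title and treatment field disagree (the field names CNP), and the title was followed.

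Promoters of 3 members are shown because the results below turn on them. Cd34 and Esm1 passed the test for CNP in the hypertrophic zone, and Clec14a had the largest deficit in the hypertrophic against the resting/proliferating zone. Each window runs from 250 bases before to 50 after the start of the gene, from RefSeq on mouse build GRCm38.p6, at chr1:194938571-194938870 on the plus strand for Cd34, chr13:113209409-113209708 on the plus strand for Esm1, and chr12:58269209-58269508 on the minus strand for Clec14a. Capitals mark GGAAG, the core letters bound by ETS factors, or its reverse complement.
Cd34: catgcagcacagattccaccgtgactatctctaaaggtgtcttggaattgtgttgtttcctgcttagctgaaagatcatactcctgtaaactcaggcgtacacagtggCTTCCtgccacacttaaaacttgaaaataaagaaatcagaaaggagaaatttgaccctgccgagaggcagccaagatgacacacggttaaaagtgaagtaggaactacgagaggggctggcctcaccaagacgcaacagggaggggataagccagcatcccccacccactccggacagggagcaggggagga
Esm1: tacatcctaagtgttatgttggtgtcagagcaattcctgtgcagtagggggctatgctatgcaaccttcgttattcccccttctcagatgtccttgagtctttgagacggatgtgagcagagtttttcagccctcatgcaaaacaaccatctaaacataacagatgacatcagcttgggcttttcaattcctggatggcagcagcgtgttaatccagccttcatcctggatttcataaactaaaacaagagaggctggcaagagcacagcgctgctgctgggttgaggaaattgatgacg
Clec14a: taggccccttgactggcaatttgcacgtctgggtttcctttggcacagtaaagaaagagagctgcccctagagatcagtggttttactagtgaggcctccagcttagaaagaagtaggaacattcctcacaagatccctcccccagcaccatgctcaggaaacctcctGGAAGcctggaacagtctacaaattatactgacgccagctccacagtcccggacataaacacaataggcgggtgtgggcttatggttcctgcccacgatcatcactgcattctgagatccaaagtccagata
The Cd34 and Clec14a windows held 1 such match each and the Esm1 window held 0. Windows were found for 21 of the 37 members, and 15 of them (71.4%) held GGAAG on either strand, against 71.1% of all 27025 windows. The longer AGGAAGT, which contains that core, was in 3 (14.3%, against 9.57% of all windows). The GATA motif GATAAG was in 2 (9.52%, against 7.43%), Cd34 and Tek. The E-box CAGATG was in 6 (28.6%, against 17.2%), Esm1 among them. The SOX motif ACAATG was in 1 (4.76%, against 12.8%). Motifs were searched on both strands, and a match is a run of letters, not a binding site.

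The first question was where along the bone the endothelial genes were expressed. The mineralized pieces gave by far the highest signals. The brightest probe sets of the 37 genes summed to signals of 6203 to 7650 over the 6 resting/proliferating arrays, 6980 to 9395 over the 6 hypertrophic arrays and 26902 to 31429 over the 6 mineralized arrays. The 6 mineralized arrays therefore stood clear of the other 12. Of the 37 genes, 31 were bright enough for the test (a mean signal above 63.5), and 27 of those 31 were higher in the mineralized than in the hypertrophic zone, with 0 lower. Among all 13247 genes tested, 23.4% were called higher and 22.5% lower at an adjusted p under 0.05 (limma with Benjamini-Hochberg adjustment). The median member differed by 2.39 on the log2 scale, against -0.01 over all genes. A gene that is bright in 1 zone alone can pass the brightness filter through that zone, so the fit was repeated on all probe sets. There 31 of the 37 were higher and 0 lower, where 17.5% of 18193 genes were called higher and 16.9% lower. Against the resting/proliferating zone, 27 of 31 were higher in the mineralized zone and 0 lower (23.3% and 28.3% of all genes), with a median of 1.84, against -0.07 over all genes. At an unadjusted p under 0.05, 0 members were lower in either comparison (limma).

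**Figure D1:**
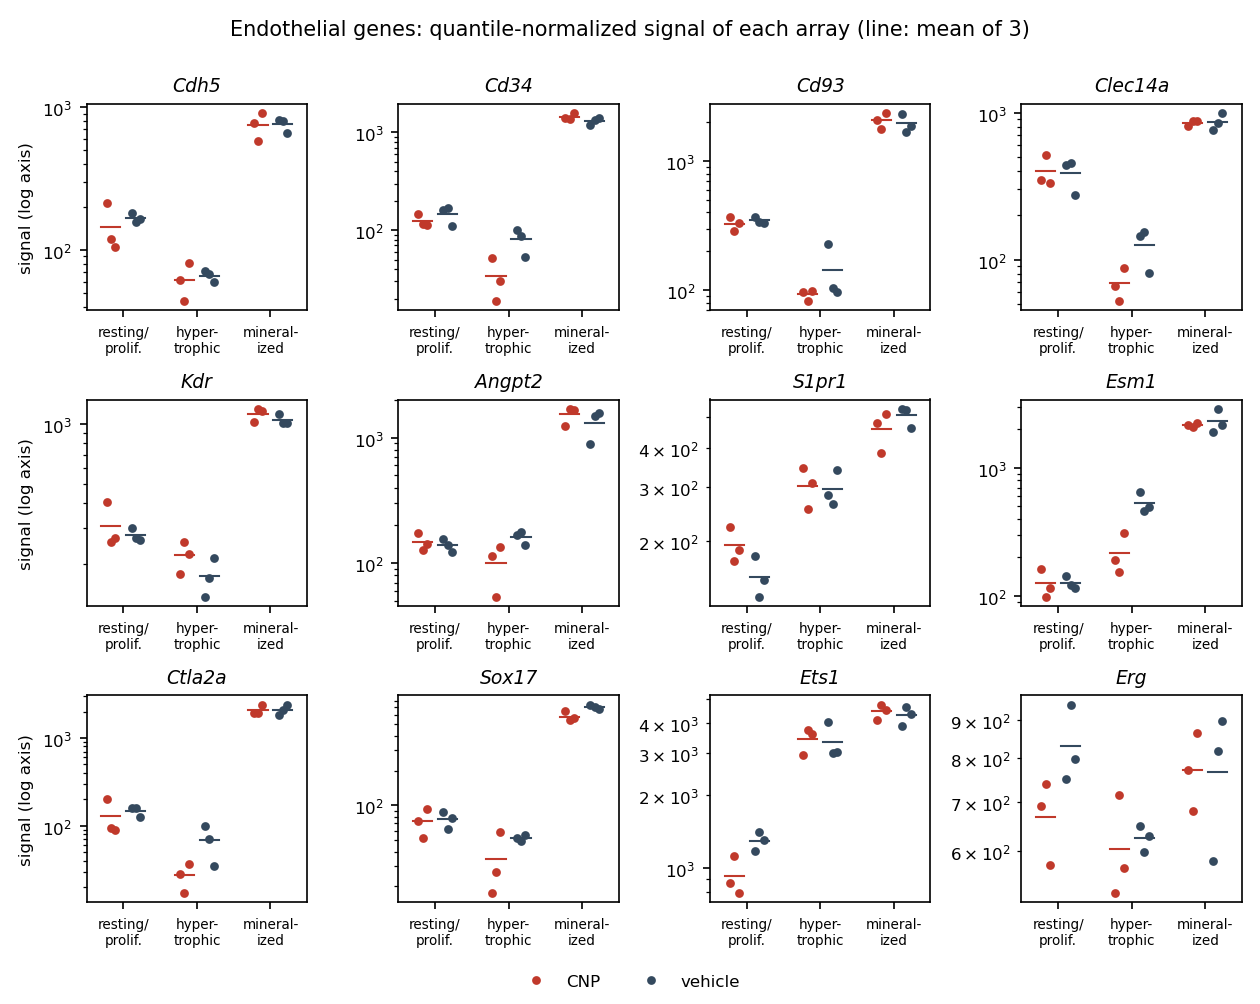
Quantile-normalized signal (log axis) of 12 endothelial genes in each of the 18 arrays, by zone, with CNP in red to the left of vehicle in dark grey; points are arrays and lines are means of 3. Mineralized arrays lie above all others for 10 of the 12 genes, from Cdh5 to Sox17, while Erg spans similar levels in every zone and Ets1 is nearly as high in the hypertrophic zone.

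Proteins of the endothelial surface and junctions differed most as a group, with 9 of 9 tested genes higher in the mineralized than in the hypertrophic zone. Cdh5, which encodes VE-cadherin (probe set 1433956_at), had signals of 104, 160 and 212 (lowest, median and highest of 6 arrays) in the resting/proliferating zone, 43.9, 64.5 and 80.6 in the hypertrophic zone and 576, 786 and 910 in the mineralized zone. All 6 mineralized arrays were above all other arrays, and all 6 hypertrophic arrays were below all 6 resting/proliferating arrays. The mineralized zone exceeded the hypertrophic zone by 3.27 ± 0.15 on the log2 scale (SE, 6 arrays per zone), or 9.63-fold (limma, adjusted p = 2.82e-10), and the resting/proliferating zone by 2.18 ± 0.15. Cd34, a sialomucin of endothelium and blood progenitors (1416072_at), had 111, 130 and 168 in the resting/proliferating zone, 18.9, 53.0 and 101 in the hypertrophic zone and 1197, 1381 and 1579 in the mineralized zone. The 3 zones did not overlap. Its difference between mineralized and hypertrophic zones was 4.37 ± 0.15, or 20.7-fold.

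The lectin-like receptors Cd93 and Clec14a fell furthest between the resting/proliferating and the hypertrophic pieces. Cd93 (1456046_at) had 287, 337 and 369 in the resting/proliferating zone, 82.3, 97.6 and 228 in the hypertrophic zone and 1700, 1988 and 2368 in the mineralized zone. Clec14a (1419467_at) had 274, 395 and 514 in the resting/proliferating zone, 52.3, 84.6 and 153 in the hypertrophic zone and 764, 860 and 993 in the mineralized zone. For both genes the 3 zones formed separate ranges in the same order, with hypertrophic pieces lowest. Clec14a differed by -1.90 ± 0.17 between hypertrophic and resting/proliferating zones (3.73-fold, adjusted p = 4.9e-07), and Cd93 by -1.47 ± 0.13. The tight-junction gene Cldn5 was 3.44 ± 0.15 higher in the mineralized than in the hypertrophic zone, and Mcam (CD146, also made by pericytes) 4.11 ± 0.26 higher. Esam, a junctional adhesion molecule, and Emcn, a sialomucin of capillaries and veins, were 2.74 ± 0.14 and 1.77 ± 0.15 higher, and their hypertrophic and resting/proliferating levels did not differ beyond the threshold (-0.20 ± 0.14 and -0.38 ± 0.15). Robo4, a guidance receptor of endothelium, was 1.73 ± 0.12 higher.

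Pecam1 and Plvap, which encode CD31 and a protein of vessel-wall pores, were too dim on this array for the test, and were brightest in the mineralized zone. Pecam1 had 10.5, 16.8 and 33.2 in the resting/proliferating zone, 7.36, 15.3 and 48.1 in the hypertrophic zone and 164, 219 and 281 in the mineralized zone. Plvap had 17.9, 30.8 and 44.9, then 10.3, 13.2 and 23.8, then 224, 320 and 390 in the same zones. Mineralized arrays of both genes lay above all others. In the fit of all probe sets, the mineralized zone exceeded the hypertrophic zone by 2.73 ± 0.26 for Pecam1 and by 3.40 ± 0.20 for Plvap.

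Of the VEGF receptors, Kdr had the largest difference between zones. Kdr (VEGFR2, 1449379_at) had 258, 269 and 404 in the resting/proliferating zone, 136, 196 and 257 in the hypertrophic zone and 1012, 1069 and 1187 in the mineralized zone. The mineralized zone exceeded the hypertrophic zone by 2.39 ± 0.15 (5.26-fold, adjusted p = 6.19e-09), with no overlap between any of the 3 zones. Flt4 (VEGFR3, the receptor of VEGF-C) differed by 1.08 ± 0.23, with 149, 220 and 345 in the mineralized zone, against 31.9, 98.3 and 165 in the hypertrophic zone, and the ranges overlapped. Its other tested probe set did not pass for the mineralized against the hypertrophic zone (0.73 ± 0.35, limma adjusted p = 0.112). Nor did it pass against the resting/proliferating zone (0.09 ± 0.35, limma adjusted p = 0.862). Eng, the TGF-beta co-receptor endoglin, differed by 1.72 ± 0.27. Flt1 (VEGFR1) was below the brightness limit in every zone, with medians of 45.4, 39.2 and 55.3 from resting/proliferating to mineralized, and in the fit of all probe sets its mineralized and hypertrophic zones differed by 0.21 ± 0.23 (limma, adjusted p = 0.565). Its ranges overlapped in all 3 zones.

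The TIE receptors and Angpt2 were highest in the mineralized zone. Tek (TIE2) had 56.1, 62.4 and 73.9 in the resting/proliferating zone, 41.5, 55.7 and 70.2 in the hypertrophic zone and 149, 182 and 207 in the mineralized zone, and the mineralized zone exceeded the hypertrophic zone by 1.42 ± 0.15. Angpt2, the ligand that endothelial cells release where vessels remodel, had 124, 141 and 172, then 54.0, 138 and 176, then 895, 1526 and 1692. Its mineralized arrays stood alone, at 3.33 ± 0.18 above the hypertrophic zone (10.1-fold), while hypertrophic and resting/proliferating ranges overlapped. Tie1, the partner receptor of TIE2, was too dim for the test: its arrays held 4.64 to 28.9 in the resting/proliferating zone, 1.84 to 3.39 in the hypertrophic zone and 84.0 to 197 in the mineralized zone. The 3 ranges were separate, and the fit of all probe sets put the mineralized above the hypertrophic zone by 3.03 ± 0.20.

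The G protein-coupled receptors and Ramp2, a partner of Calcrl, were mixed, with 3 of these 4 genes higher in the mineralized than in the hypertrophic zone. Calcrl and Ramp2 together form the receptor for adrenomedullin, a peptide that vessels need to develop. Calcrl differed by 3.09 ± 0.16 (8.5-fold) in its brightest probe set and by 0.33 ± 0.15 in its other tested one, which did not pass (limma, adjusted p = 0.0842). Ramp2, which pairs with it, differed by 1.43 ± 0.12 (2.7-fold). The sphingosine-1-phosphate receptor S1pr1 climbed along the bone, with 133, 176 and 223 in the resting/proliferating zone, 255, 295 and 343 in the hypertrophic zone and 384, 496 and 533 in the mineralized zone. Each zone lay wholly above the one before, at 0.73 ± 0.11 for hypertrophic against resting/proliferating and 0.67 ± 0.11 for mineralized against hypertrophic. Aplnr, the apelin receptor, did not pass in any zone comparison (0.38 ± 0.15 for mineralized against hypertrophic, limma adjusted p = 0.0555).

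Secreted and matrix proteins were led by Esm1 (endocan, 1449280_at), a proteoglycan made by the tip cells of sprouting vessels. It had 98.0, 118 and 160 in the resting/proliferating zone, 153, 385 and 644 in the hypertrophic zone and 1922, 2166 and 2890 in the mineralized zone. The mineralized zone exceeded the resting/proliferating zone by 4.00 ± 0.15 (16-fold, adjusted p = 2.32e-11), more than any other member in that comparison, and the hypertrophic zone by 2.68 ± 0.15. Esm1 was also 1.32 ± 0.15 higher in the hypertrophic than in the resting/proliferating zone. The vessel-organizing protein Egfl7 differed by 2.57 ± 0.12 between mineralized and hypertrophic zones. Mmrn2, a matrix ligand of CD93 and CLEC14A, differed by 0.92 ± 0.28 in its brightest probe set, and by 1.00 ± 0.15, 1.46 ± 0.21 and 4.00 ± 0.17 in its other 3. The brightest probe sets of Mmrn2, Egfl7 and Sox17 carry the manufacturer's suffix for probes that can bind more than 1 transcript. Vwf, the clotting factor stored in endothelium, was dim everywhere (medians of 29.0, 29.5 and 18.1 from resting/proliferating to mineralized), and in the fit of all probe sets the mineralized and hypertrophic zones differed by -0.27 ± 0.30 (limma, adjusted p = 0.58).

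Among enzymes and intracellular proteins, Ctla2a had the largest zone difference of all members. This cysteine protease inhibitor had 88.2, 141 and 203 in the resting/proliferating zone, 17.2, 35.5 and 99.8 in the hypertrophic zone and 1840, 1999 and 2388 in the mineralized zone. The mineralized arrays were clear of all others, at 5.16 ± 0.20 above the hypertrophic zone (35.9-fold, adjusted p = 5.49e-11) and 3.82 ± 0.20 above the resting/proliferating zone. Ctla2b is a near copy of this gene, and its transcript may contribute to the signal. Rasip1, which acts on the Ras-family switch proteins that let vessels open a lumen, differed by 1.84 ± 0.21 and Nos3, the endothelial nitric oxide synthase, by 0.87 ± 0.16.

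Transcription factors split into 2 sets. The SOXF factors Sox7, Sox17 and Sox18, which specify endothelium, followed the surface genes. Sox17 had 52.6, 75.6 and 92.8 in the resting/proliferating zone, 17.6, 50.8 and 58.4 in the hypertrophic zone and 540, 660 and 738 in the mineralized zone, and the mineralized arrays did not overlap the others. The mineralized against hypertrophic differences were 3.52 ± 0.16 for Sox17, 3.38 ± 0.17 for Sox18 and 2.69 ± 0.19 for Sox7. The other tested factors, of the ETS and blood lineages, showed smaller differences. Erg, an ETS factor of endothelium that developing cartilage also uses, had 575, 744 and 944 in the resting/proliferating zone, 528, 614 and 713 in the hypertrophic zone and 583, 795 and 898 in the mineralized zone, with wide overlap (0.31 ± 0.12 for mineralized against hypertrophic, limma adjusted p = 0.0602). Gata2 and Lyl1 did not pass in any zone comparison, at -0.09 ± 0.14 and 0.29 ± 0.16 for mineralized against hypertrophic. Tal1 was under the brightness limit, with 100 to 117 in all mineralized arrays, against 17.4 to 64.7 in hypertrophic and 40.8 to 58.8 in resting/proliferating arrays.

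Ets1 had the largest excess of the hypertrophic over the resting/proliferating zone among the tested members. It had 791, 1149 and 1411 in the resting/proliferating zone, 2942, 3300 and 4015 in the hypertrophic zone and 3895, 4423 and 4745 in the mineralized zone. Hypertrophic arrays lay above all resting/proliferating arrays, at 1.61 ± 0.10 (3.05-fold, adjusted p = 7.5e-09). The mineralized against hypertrophic difference of 0.38 ± 0.10 was not stable: it was -0.031 when each array was centred on its median instead of quantile-normalized, and 2 other Ets1 probe sets passed the test in the opposite direction, at -0.92 ± 0.15 and -0.46 ± 0.17. All 4 Ets1 probe sets were higher in the hypertrophic than in the resting/proliferating zone.

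**Figure D2:**
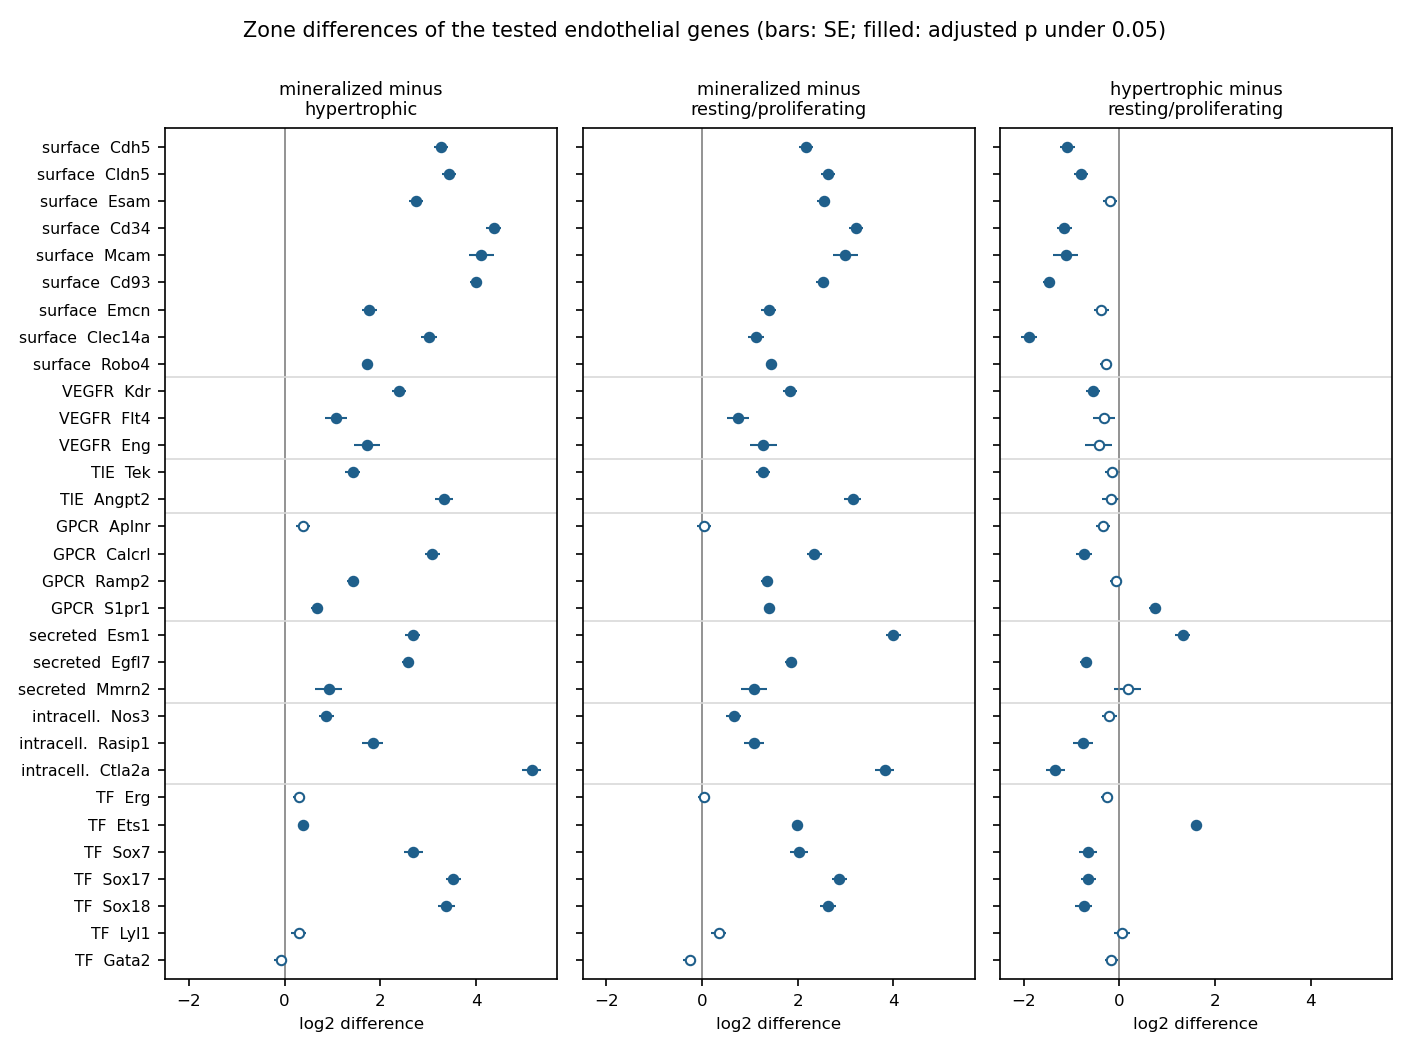
Log2 differences between zones for the 31 tested endothelial genes, grouped by role, with bars of 1 SE and filled points for an adjusted p under 0.05. Mineralized minus hypertrophic differences run up to 5.16 for Ctla2a, and hypertrophic minus resting/proliferating differences are mostly below 0, with Esm1, Ets1 and S1pr1 as the 3 called above it.

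A smaller group of members was lower in the hypertrophic than in the resting/proliferating zone. Of the 31 tested members, 14 were lower, 3 higher and 14 did not pass (limma), where 20.6% of all genes were called lower and 15.7% higher, and the median member differed by -0.38, against -0.06 over all genes. The 14 were Cdh5, Cldn5, Cd34, Mcam, Cd93, Clec14a, Kdr, Calcrl, Egfl7, Rasip1, Ctla2a, Sox7, Sox17 and Sox18. Some of their other tested probe sets did not pass: Calcrl (-0.003 ± 0.15), Cd93 (-0.32 ± 0.20) and Egfl7 (0.28 ± 0.27 and -0.19 ± 0.21). The rest were lower: Cd93 (-1.93 ± 0.18), Clec14a (-2.43 ± 0.17) and Egfl7 (-0.93 ± 0.11). Among members not called lower, another probe set each of Mmrn2 (-0.84 ± 0.17) and Eng (-0.63 ± 0.23) was lower. For 8 of the 31 (25.8%) every hypertrophic array was below every resting/proliferating array, against 8.74% of all genes. The summed signal of the 37 genes, given above, was not lower in hypertrophic arrays, but its parts went opposite ways. The 8 transcription factors, Ets1 among them, summed to 4069 to 5264 over hypertrophic arrays, against 2142 to 3016 over resting/proliferating arrays. The 11 surface and junction genes summed to 626 to 1236, against 1537 to 2043. All 14 members called lower were also highest in the mineralized zone, a pattern of 45.2% of the tested members and 2.17% of all genes. Leaving out 1 culture of 6 ended the call of Kdr (without vehicle culture 2, -0.45, limma adjusted p = 0.0556) and of Rasip1 (without vehicle culture 4, -0.67, limma adjusted p = 0.0652). In CNP cultures alone, Kdr, Rasip1, Sox7 and Sox18 lost these calls (limma, adjusted p = 0.137 to 0.514). In vehicle cultures alone, Mcam, Calcrl, Sox7 and Sox17 lost theirs (limma, adjusted p = 0.0657 to 0.0953). The other calls of the 14 stayed in both. Fluidics runs (staining runs of the arrays) are not labelled and were inferred here from gaps between hybridization times in the instrument logs. With this run as a block the 14 became 7.

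The higher levels of the mineralized zone were seen array by array. For 23 of 31 members (74.2%) every mineralized array was above all 12 others, against 8.89% of all genes. With 1 culture left out, the mineralized against hypertrophic count stayed between 26 and 28, and the calls that ended were Mmrn2 without vehicle culture 4 (0.64, limma adjusted p = 0.108), and, against the resting/proliferating zone, Flt4 without vehicle culture 2 (0.63, limma adjusted p = 0.0781) or CNP culture 4 (0.68, limma adjusted p = 0.051). In CNP cultures alone, Mmrn2 and Nos3 lost their mineralized against hypertrophic calls (limma, adjusted p = 0.143 and 0.0762). In vehicle cultures alone, Ets1 and Flt4 lost theirs (limma, adjusted p = 0.0628 and 0.067). The other calls of that comparison stayed in both. The actin 3′/5′ ratio, which rises as RNA degrades, was 1.59 to 1.87 over all mineralized arrays, against 2.20 to 3.93 over hypertrophic and 2.44 to 4.85 over resting/proliferating arrays. The part of RNA quality in the zone differences was not tested.

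Endothelial genes outside the set were also higher in the mineralized zone. Of 21 other tested endothelial genes, 17 were higher in the mineralized than in the hypertrophic zone and 0 lower (23.4% and 22.5% of all genes). Their median difference was 1.29. Between hypertrophic and resting/proliferating zones 3 of these 21 were lower (20.6% of all genes), 2 higher (15.7%) and 16 did not pass. In that comparison 14 of the 21 were below 0, with a median of -0.12 and a highest difference of 3.06. The list of 22 summed to 4410 to 6606 over hypertrophic arrays, against 2922 to 3564 over resting/proliferating arrays. Between mineralized and hypertrophic zones, the capillary protein Gpihbp1, which anchors lipoprotein lipase, differed by 2.83. The transcriptional repressor Bcl6b differed by 2.61, the adhesion receptor Adgrl4 by 2.13 and She by 1.78. Genes of other cell types that come with vessels were higher too. Of 9 tested pericyte and smooth muscle genes 7 were higher and 1 (Cspg4, a pericyte proteoglycan, named after its values were seen) lower, and the list of 12 summed to 20830 to 24755 in mineralized arrays, against 4084 to 6572 in hypertrophic arrays. Of 9 tested macrophage and leukocyte genes 9 were higher (17304 to 18146, against 2411 to 4511 for the list of 12), and of 7 tested osteoclast genes 7 (28047 to 32152, against 2808 to 8444 for the list of 8). Of 5 tested megakaryocyte and mast cell genes, lineages that also use Gata2, Tal1 and Lyl1, 2 were higher, and the list of 8 summed to 1259 to 1472 in mineralized and 536 to 981 in hypertrophic arrays. The part of these cells in the signals of shared genes was not tested. Of 4 tested lymphatic genes 1 (Pdpn) was higher and 0 lower. The list of 5 summed to 606 to 932 in mineralized arrays, against 422 to 667 in hypertrophic and 1215 to 1831 in resting/proliferating arrays. Prox1, which defines lymphatic endothelium and was named after its values were seen, was dim in every array (2.46 to 43.9 in its brightest probe set).

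Ligands and inhibitors of angiogenesis had an order of their own. Of 15 tested, 8 were higher and 3 lower in the mineralized than in the hypertrophic zone (23.4% and 22.5% of all genes). Pgf, a VEGF-family ligand of FLT1, had 628, 790 and 860 in CNP and 608, 1013 and 961 in vehicle mineralized arrays, against 68.9, 122 and 81.7 in CNP and 104, 127 and 135 in vehicle hypertrophic arrays. Its groups did not overlap between zones (2.76 ± 0.20). Vegfc, the ligand of FLT4, was 2.61 ± 0.19 higher, and Cnmd (chondromodulin), a cartilage inhibitor of vessel growth, differed by -2.18 ± 0.16. Angpt1, the ligand that activates TIE2, was lowest in the hypertrophic zone, by -2.88 ± 0.13 against the resting/proliferating zone, and 1.74 ± 0.13 higher in the mineralized than in the hypertrophic zone. Vegfa, named after its values were seen, was 0.72 ± 0.15 higher in the hypertrophic than in the resting/proliferating zone (limma, adjusted p = 0.00174), and its mineralized zone did not pass against either. The mean Vegfa signal was highest in the hypertrophic pieces. Of the 31 tested members, 14 were lower there than in the resting/proliferating zone, 3 were higher and 14 did not pass. Of all genes, 20.6% were called lower and 15.7% higher.

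**Figure D3:**
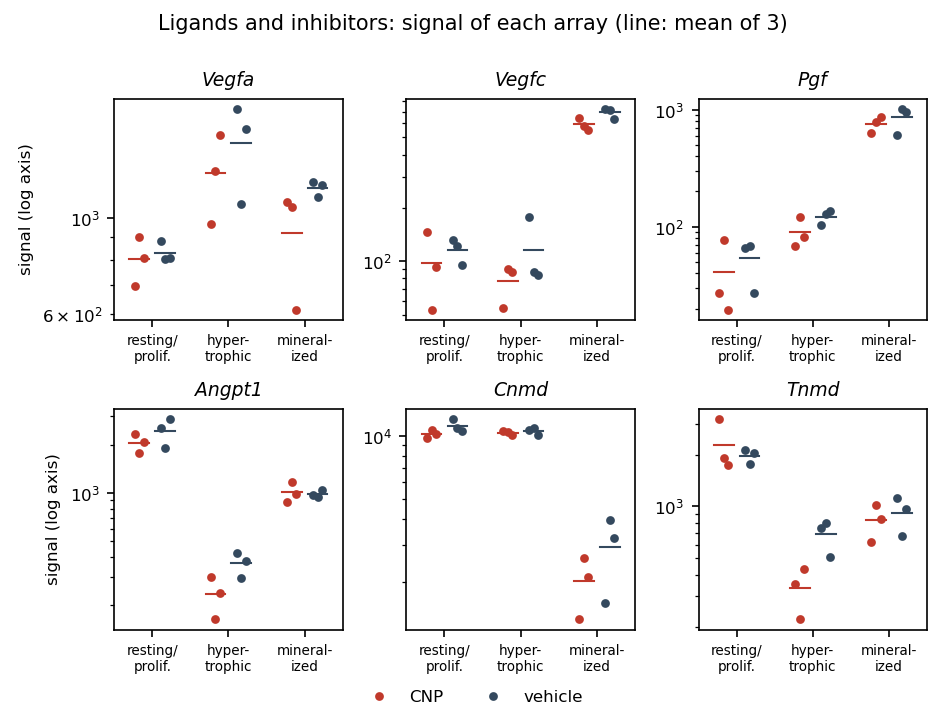
Signal (log axis) of 6 ligands and inhibitors of vessel growth in each array, by zone, CNP in red left of vehicle in dark grey, lines at means of 3. Vegfc and Pgf lie highest in mineralized arrays, Angpt1 and Tnmd highest in resting/proliferating arrays, Cnmd is lowest in mineralized arrays, and mineralized Vegfa arrays overlap both other zones.

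The second question was whether CNP changed the endothelial transcripts. In the resting/proliferating and mineralized zones 0 of 31 members passed the limma test, where 0.0302% and 0.00755% of all genes did. At an unadjusted p under 0.05 there was 1 member in the resting/proliferating zone (Ets1, 3.23%, against 13.6% of all genes) and 0 in the mineralized zone (against 3.3% of all genes). Member differences ran from -0.49 to 1.01 in the resting/proliferating zone and from -0.26 to 0.50 in the mineralized zone, with SEs of 0.14 to 0.49. Without CNP resting/proliferating replicate 3, Ets1 alone was called there. Averaged over the zones, 0 of 31 passed (0.0302% of all genes), with 4 at an unadjusted p under 0.05 (12.9%, against 13.3% of all genes). In mineralized arrays, where these genes were brightest, Cdh5 had 770, 576 and 910 with CNP, against 815, 801 and 657 with vehicle. Kdr had 1020, 1187 and 1158 with CNP there, against 1118, 1014 and 1012 with vehicle. Both pairs of groups overlapped.

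In the hypertrophic zone, 2 of 31 members were lower with CNP and 0 higher, where 1.39% of all genes were called lower and 0.611% higher. Esm1 had 191, 153 and 308 with CNP, against 644, 463 and 497 with vehicle. Every CNP array was below every vehicle array. The difference was -1.28 ± 0.23 (2.43-fold, limma adjusted p = 0.00609). Cd34 had 52.6, 18.9 and 30.3 with CNP, against 101, 87.3 and 53.4 with vehicle, so that the groups nearly touched. It differed by -0.97 ± 0.23 (1.96-fold, limma adjusted p = 0.0414). At an unadjusted p under 0.05 there were 6 members, all lower (19.4%, against 15.4% of all genes): Cd34, Clec14a, Angpt2, Esm1, Ctla2a and Sox17. For 5 members (16.1%) all CNP arrays lay below all vehicle arrays, against 10.6% of all genes.

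Both calls were narrow. Esm1 kept its call when any single array was left out. It lost its call without all arrays numbered 2 in the 3 zones (-1.08, limma adjusted p = 0.153) or all numbered 3 (-1.17, limma adjusted p = 0.0729). Cd34 lost its call without vehicle replicate 2 (-0.82, limma adjusted p = 0.194), vehicle replicate 3 (-0.91, limma adjusted p = 0.106), CNP replicate 3 (-0.74, limma adjusted p = 0.192) or CNP replicate 4 (-0.95, limma adjusted p = 0.0771). In a fit without a brightness filter, over all 37 members, Esm1 alone was called, where 0.846% of all genes were called lower.

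The zone pattern of Esm1 differed in size between treatments. Its hypertrophic against resting/proliferating difference was 0.70 ± 0.23 in CNP cultures (adjusted p = 0.054) and 1.95 ± 0.19 in vehicle cultures (adjusted p = 4.14e-05, both from limma). The test of that difference gave -1.25 ± 0.31 (limma, adjusted p = 0.155) and did not pass. The CNP response of Esm1 was 1.20 ± 0.31 higher in the mineralized than in the hypertrophic zone (limma, adjusted p = 0.232), and that of Cd34 1.11 ± 0.30 (limma, adjusted p = 0.262). None of the 31 members passed for a CNP response that differed between any pair of zones, where 0.083%, 0% and 0.226% of all genes did for mineralized against hypertrophic, mineralized against resting/proliferating, and hypertrophic against resting/proliferating. At an unadjusted p under 0.05 these comparisons held 4, 2 and 5 members (12.9%, 6.45% and 16.1%, against 8.11%, 7.81% and 11.1% of all genes, limma).

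**Figure D4:**
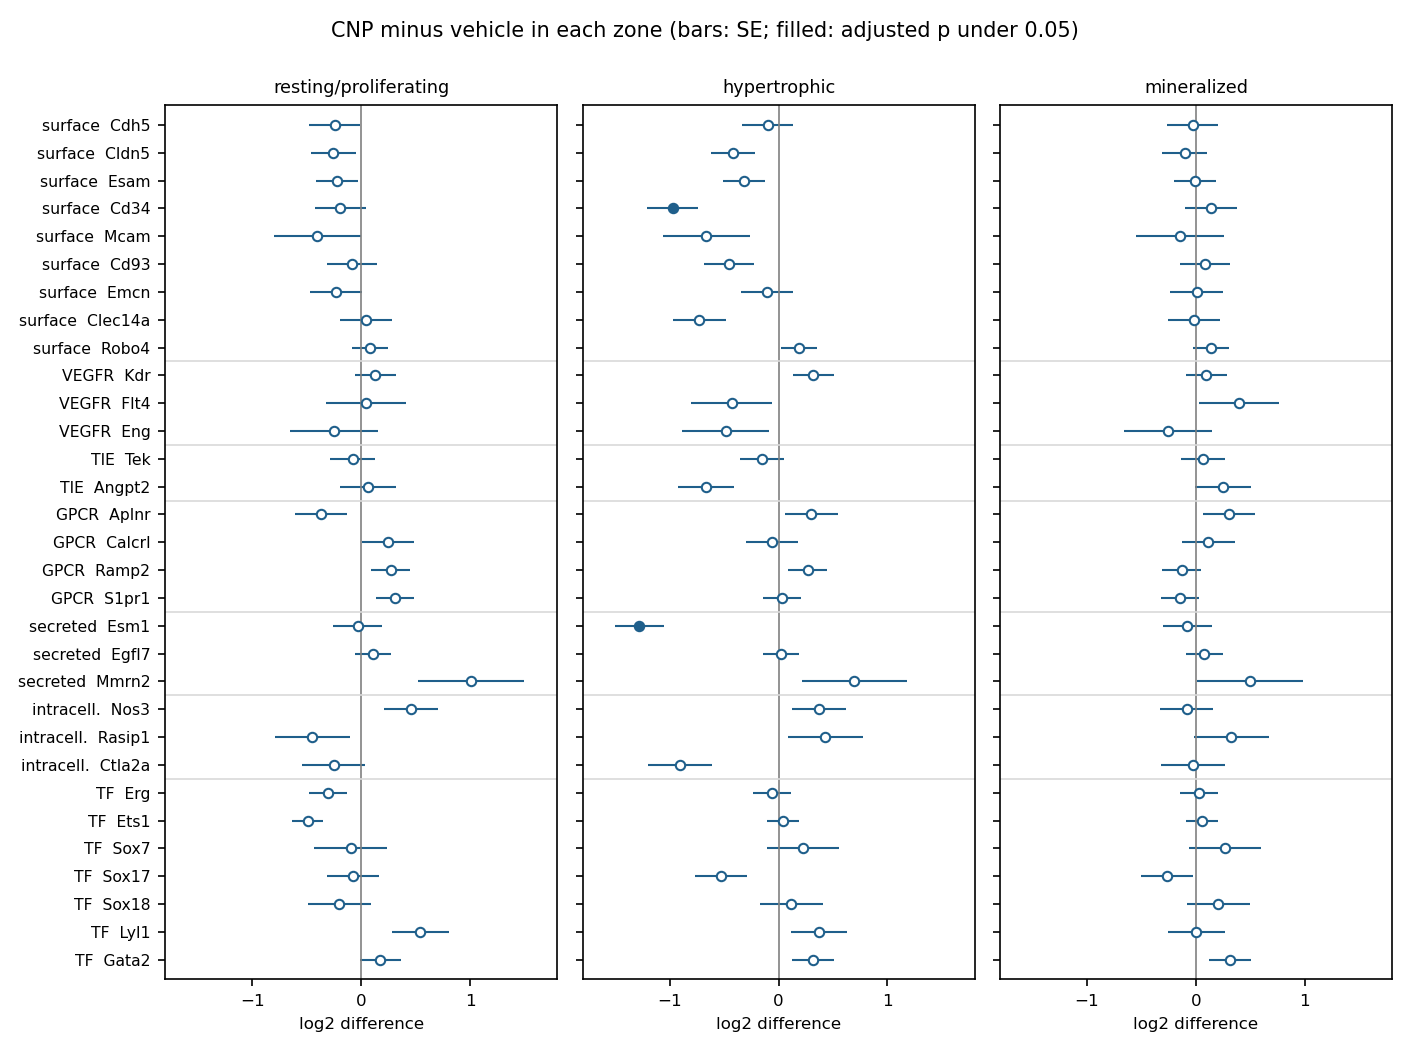
CNP minus vehicle log2 differences of the 31 tested endothelial genes in each zone, with bars of 1 SE and filled points for an adjusted p under 0.05. Esm1 (-1.28) and Cd34 (-0.97) in the hypertrophic zone are the filled points, and the mineralized differences lie between -0.26 and 0.50.

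Genes outside the set were also lower with CNP in the hypertrophic pieces, beside Esm1 and Cd34. Lmo2, a partner of TAL1 in endothelium and blood cells and no member of the set, had 75.3, 21.9 and 14.9 with CNP, against 338, 280 and 259 with vehicle. The groups did not overlap, and Lmo2 differed by -2.69 ± 0.32 (limma, adjusted p = 0.000153). Among the 21 other tested endothelial genes, Lmo2 was the 1 called lower and 0 were called higher. Of all genes, 1.39% were called lower. Of the pericyte list, Pdgfrb (-0.96 ± 0.18) and Kcnj8 (-1.54 ± 0.23) fell among 9 tested, and the list of 12 summed to 4084 to 4555 with CNP, against 5333 to 6572 with vehicle. Of the osteoclast list, Mmp9 (-1.17 ± 0.26) and Itgb3 (-1.15 ± 0.24) fell among 7 tested, and the list of 8 summed to 2808 to 4930 with CNP, against 7327 to 8444 with vehicle. The macrophage marker Cd68 differed by -1.07 ± 0.26, the 1 called of 9 tested, with overlapping list sums of 2411 to 3870 with CNP, against 3205 to 4511 with vehicle. Most of these calls were as narrow as those of the members. Pdgfrb lost its call without CNP replicate 3 or vehicle replicate 2 (limma, adjusted p = 0.0521 and 0.0505), and was -0.37 when its highest-variance probe set stood for it. Mmp9 lost its call without CNP replicate 2 or 3 or vehicle replicate 2 or 4 (limma, adjusted p = 0.0529 to 0.132), and Itgb3 without CNP replicate 2 or vehicle replicate 2 or 4 (0.081 to 0.0922). Cd68 kept its call only when the array left out was CNP replicate 4. Lmo2 and Kcnj8 kept theirs when any single array was left out. The 37 members themselves summed to 6980 to 8544 with CNP, against 7019 to 9395 with vehicle, and overlapped. Of these sums, the 8 transcription factors held 4153 to 4905 with CNP and 4069 to 5264 with vehicle. The 11 surface and junction genes held 626 to 858 with CNP, against 801 to 1236 with vehicle, and overlapped too.

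The actin 3′/5′ ratio in hypertrophic arrays was 2.39 to 3.93 with CNP, against 2.20 to 2.36 with vehicle, with no overlap. CNP replicate 3 was the lowest of 6 hypertrophic arrays for 13 of the 31 members. Of the 9 tested surface and junction genes, 8 were below 0 with CNP (median -0.42), though Cd34 alone passed. Over all 31 tested members, 17 were below 0 and 14 above, with a median of -0.06, against -0.01 over all genes. Of the 7 tested transcription factors, 5 were above 0. Cldn5 and Esam also had all CNP arrays below all vehicle arrays. Cldn5 had 65.9, 52.6 and 92.4 with CNP, against 93.7, 98.4 and 99.4 with vehicle (-0.42 ± 0.21, limma adjusted p = 0.381). The vessel genes Cdh5 (61.5, 43.9 and 80.6 with CNP, against 71.3, 67.5 and 59.3 with vehicle) and Kdr (178, 257 and 224 with CNP, against 136, 170 and 215 with vehicle) overlapped between treatments. Differences of -0.10 ± 0.23 for Cdh5 and 0.32 ± 0.19 for Kdr did not pass (limma, adjusted p = 0.903 and 0.492). The part of RNA quality and of the other cell types in the lower Esm1 and Cd34 signals was not tested.

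**Figure D5:**
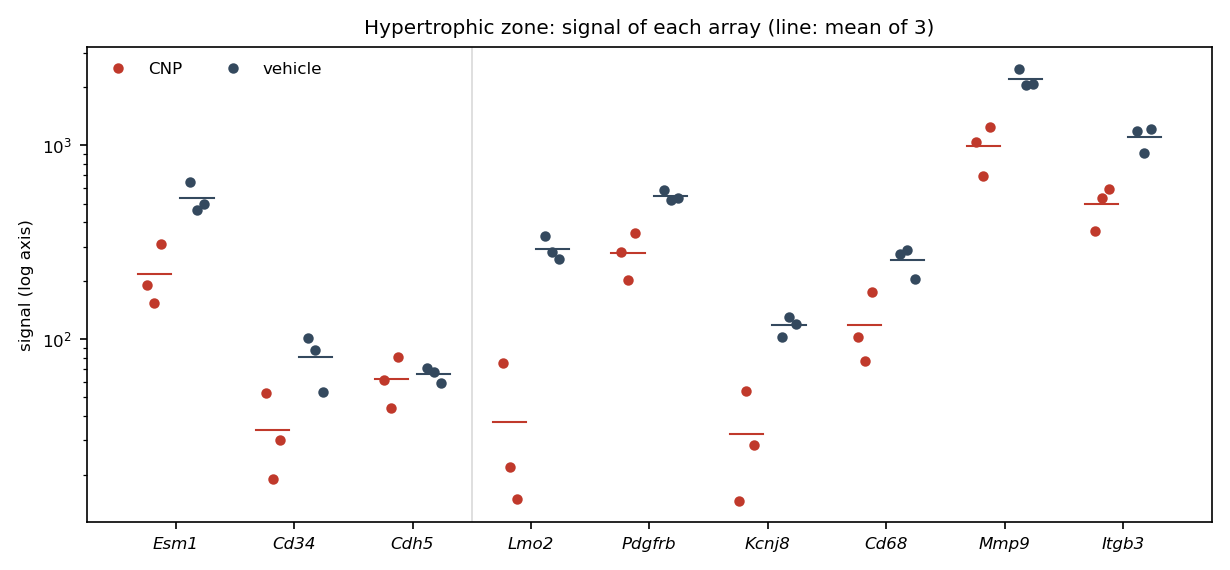
Signal (log axis) in the hypertrophic arrays of 3 endothelial members and, right of the grey line, 6 genes outside the set. These are Lmo2, of endothelium and blood cells, and genes of macrophages, mural and bone-resorbing cells. CNP is in red left of vehicle in dark grey, with lines at means of 3. CNP arrays lie below vehicle arrays for every gene shown except Cdh5, and for Cd34 the highest CNP array (52.6) almost meets the lowest vehicle array (53.4).

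No ligand or inhibitor of the angiogenesis list passed for CNP in the hypertrophic zone, 0 of 15 tested by limma (2% of all genes). At an unadjusted p under 0.05 there were 4 of the 15 (Angpt1, Nrp1, Apln and Tnmd), against 15.4% of all genes. Vegfa differed by -0.22 ± 0.22, Vegfc by -0.46 ± 0.28 and Angpt1 by -0.63 ± 0.20 (limma, adjusted p = 0.719, 0.509 and 0.137). Vegfa had 966, 1282 and 1556 with CNP, against 1784, 1074 and 1603 with vehicle, and these overlapped.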

How the data were processed

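RNA was measured on 18 one-colour Affymetrix MOE430_2 arrays. The deposited table holds the authors' linear signal intensity per probe set; the software that made it is not stated per the file headers or the labels. The intensities were quantile-normalized here, after 64 controls were left out, and tested as log2(signal + 16), which understates folds of dim genes. The lowest 40% by mean log2 signal were left out, and 27022 of 45037 probe sets were tested. Genes were named from the 34945 with 1 gene symbol (932 have several, 9160 none).

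limma 3.58.1 in R 4.3.3 (lmFit, eBayes with trend, two-sided) was used, with Benjamini-Hochberg adjustment over all tested probe sets and a call under 0.05. Zones were compared within cultures, and CNP with vehicle within each zone in a fit of all 18 arrays, or on culture means. The number of arrays limits the precision. Members, lists and tests were chosen with earlier results of these data known. Beyond the members, the 4 genes per list with the lowest adjusted p between mineralized and hypertrophic zones could be named, and listed genes called for CNP; others were picked after their values were seen.

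Same-numbered CNP and vehicle arrays deviated together in the resting/proliferating zone (r = 0.187, 0.378 and 0.154) and over culture means. The values were lower in the hypertrophic (-0.018 to 0.123) and mineralized (0.062 to 0.137) zones. All arrays numbered 3 were hybridized on 1 day and all others on another. Pairing of cultures by number and a shared hybridization day therefore cannot be told apart for them. Alternatives covered normalization, pseudocount, filter, choice of probe set, hybridization day, fluidics run, aborted instrument logs, the doubtful label, pairing and each array left out. The fits were tested on simulated data.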

Additional observations from a re-analysis of the deposited data

Results flagged for a closer look

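The CNP response of Lmo2, a transcriptional co-factor of endothelium and blood cells outside the 37 genes, differed between zones by the test of the difference itself. It was 2.92 ± 0.38 (log2, SE) higher in the mineralized than in the hypertrophic zone (limma, adjusted p = 0.00956). It was -3.28 ± 0.38 in the hypertrophic against the resting/proliferating zone (limma, adjusted p = 0.00367). Lmo2 signals in mineralized arrays were 674, 494 and 586 with CNP, against 544, 533 and 416 with vehicle, and overlapped. The first of these differences did not pass in 8 of 21 alternatives, among them those without vehicle culture 2 or vehicle culture 4, and the second in 5 of 21, with adjusted p up to 0.198 and 0.103 (limma).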

How the results depend on the processing

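The count of members lower with CNP in the hypertrophic zone (2) was 1 without normalization, with each array centred on its median, with a pseudocount of 64, with no brightness filter and without the arrays of an aborted instrument log, and that 1 was Esm1 each time. It was 0 within hybridization day 2, with the fluidics run as a block and in a fit of the 2 groups alone. With a replicate or array left out it ran from 0 to 2, and in the resting/proliferating zone from 0 to 1. With the replicate block it stayed at 2, and the block gave 0 in the resting/proliferating and mineralized zones and for the mean of the zones, so pairing changed no call of a count. The hypertrophic against resting/proliferating count of 17 was 10 with the fluidics run as a block and 13 to 18 with cultures left out. Mineralized against hypertrophic ran from 25 to 28 and mineralized against resting/proliferating from 26 to 28. Ets1 turned to -0.031 between mineralized and hypertrophic zones with median centring (limma, adjusted p = 0.89), and the cause was not tested. Over the 24 alternatives, Esm1 lost its CNP call in 5 and Cd34 in 15, while in the same zone Mmp9 lost it in 12, Cd68 in 14, Pdgfrb in 10, Itgb3 in 7, Kcnj8 in 2 and Lmo2 in 0. Among these alternatives, hybridization day 2 alone and the fit without the arrays numbered 3 used the same arrays. The differences in Lmo2 response between zones lost theirs in 8 of 21 alternatives (mineralized minus hypertrophic, adjusted p up to 0.198) and in 5 of 21 (hypertrophic minus resting/proliferating, up to 0.103). Without normalization the median of all genes moved to 0.44 between mineralized and hypertrophic zones. Counting the doubtful array as CNP, and the fluidics block, were not run for the mean of the zones.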
